A study of Mesocricetus auratus with 6 samples.

Results

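The genes described here encode the coats and tethers of transport vesicles between the endoplasmic reticulum, the Golgi and the plasma membrane. They were chosen by name: every gene whose symbol begins with Trappc, Exoc or Cog and a number, the 7 subunits of the COPI coat, 10 genes of the COPII coat, and the golgins Golgb1 and Golga2. Of 56 such symbols, 53 were found among the 16078 genes listed in the data set, and 51 of these reached a mean of at least 1 FPKM (fragments mapped to a gene, scaled for transcript length and for the library's mapped fragments) in 1 of the groups and were tested. Trappc2, Trappc3l and Golga2 were not matched and are not analysed here. The cells were BHK21, a fibroblast-like line established from baby hamster kidney, of which 3 libraries (STYK1 1 to 3) came from cells transfected with STYK1/NOK and 3 (vector 1 to 3) from cells transfected with the empty plasmid pCMV-Myc. The labels give the tissue as kidney and the age as one day for all 6 libraries. All cells thus went through a transfection, no untransfected cells were included, and RNA was taken 48 after it, a time for which the labels give no unit. STYK1, also named NOK, has a membrane anchor and a domain related to kinases. The labels do not give the species of the sequence that was transfected. Whether libraries of the same group stem from different cultures is also not stated, so that the p-values reflect how far these libraries differ, a spread that may be technical.

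Newly made membrane and secretory proteins leave the endoplasmic reticulum in vesicles coated with COPII. The small GTPase SAR1 recruits an inner layer of SEC23 and SEC24, in which SEC24 binds cargo, and an outer cage of SEC13 and SEC31 then bends the membrane. COPI, a coat of different subunits recruited by ARF GTPases, carries proteins from the Golgi back to the endoplasmic reticulum and between Golgi cisternae. Tethers catch arriving vesicles before fusion: TRAPP complexes activate RAB GTPases at the early secretory pathway, the Golgi and autophagosomes, COG works on retrograde vesicles within the Golgi, the exocyst holds secretory vesicles at the plasma membrane, and golgins are long coiled-coil proteins that reach out from Golgi membranes.

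Some facts of the whole data set bear on all values below. The hamster gene Styk1 had 1.5, 1.80 and 1.89 FPKM in the vector libraries, against 2.04, 2.46 and 2.41 FPKM in the STYK1 libraries, a difference that did not pass the test (limma-trend, adjusted p = 0.470). No gene of 11464 passed at an adjusted p under 0.05 (0%), while 1128 had an unadjusted p under 0.05. Vector 1 stood apart: its correlation with the other libraries had a median of 0.971, against 0.988 to 0.992 for the others, and on the axis of largest variance (58.8%) it lay at -38.2 while the other 5 lay between 1.98 and 14.9. The sum of FPKM was 619840 in vector 1 and 528160 to 557946 in the other libraries. The depth is unknown, because no read totals were at hand. Of 7 measured fibroblast markers, Vim, Fn1 and Pdgfrb were above a mean of 1 FPKM, while the collagen genes Col1a1, Col1a2 and Col3a1 stayed at or below 1.02 FPKM and Thy1 at or below 0.18 FPKM. The summed level of the fibroblast list was 4180 to 4411 FPKM in vector and 3919 to 4196 FPKM in STYK1 libraries. Most of it was Vim, at 3915 to 4141 FPKM in vector and 3650 to 3950 FPKM in STYK1 libraries. Kidney epithelium markers (7 measured) summed to at most 3.29 FPKM in vector and to 2.34 to 4.96 FPKM in STYK1 libraries, most of it Aqp1 (1.63 to 3.49 FPKM). Endothelial markers (3 measured) summed to 4.89 to 8.58 and 6.73 to 9.46 FPKM, most of it Cdh5 (4.45 to 9.11 FPKM). Of 6 macrophage markers, Cd68, Cd14 and Csf1r were above 1 FPKM, but Ptprc, Adgre1 and Itgam were at most 0.16 FPKM, and the list summed to 520.6 to 534 FPKM in vector and 452 to 512.9 FPKM in STYK1 libraries. The part of these marker levels in the results was not tested. In bulk RNA, fewer cells that express a gene and less RNA of it per cell cannot be told apart.

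FPKM is a level per transcript length, so it allows genes to be compared within a library. The 7 COPI subunits on the list had means over the 6 libraries from 57.8 FPKM (Copg1) to 148 FPKM (Cope), a 2.55-fold range with a median of 84.95 FPKM. The paralogs Copg2 and Copz2, which the list leaves out, were lower, at means of 20.97 and 23.7 FPKM. In COPII, the GTPases Sar1a and Sar1b (68.2 and 80.9 FPKM) and the cage subunit Sec13 (83.2 FPKM), which is also part of the nuclear pore, lay well above the SEC23 and SEC24 genes, whose means ran from 14.1 FPKM (Sec23b) to 27.4 FPKM (Sec23a). Sec31a, the partner of Sec13 in the cage, was at 22.8 FPKM. TRAPP genes spanned a 13.3-fold range, from Trappc9 at 7.12 FPKM to Trappc2l at 94.9 FPKM. The exocyst subunits themselves ran from 7.60 FPKM (Exoc8) to 29.8 FPKM (Exoc6), and COG from 9.67 FPKM (Cog3) to 35.2 FPKM (Cog6). The exocyst-like genes that the naming rule also takes were low. Exoc3l1 and Exoc3l4 had means of 1.69 and 2.27 FPKM. Exoc3l2 was listed at 0.04 to 0.20 FPKM, and Exoc1l at 0.07, 0 and 0.07 FPKM in vector and at 0 in all 3 STYK1 libraries, so neither was tested.

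**Figure D1:**
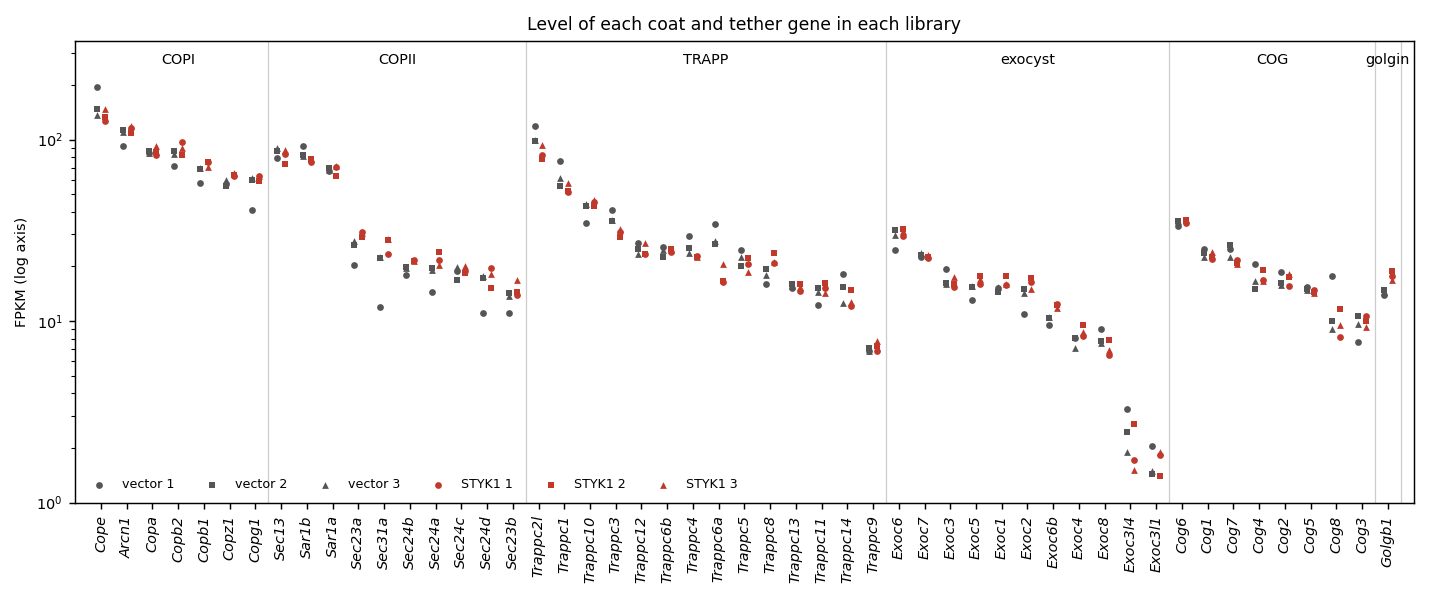
FPKM (log axis) of the 51 tested coat and tether genes in each of the 6 libraries, ordered by mean level within each complex; grey marks are vector and red marks STYK1 libraries. COPI genes lie between 40.65 and 194 FPKM, and vector 1 (grey circles) is often the lowest or the highest mark of a gene.

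None of the 51 genes passed the test between STYK1 and vector libraries (limma-trend on log2(FPKM + 1), Benjamini-Hochberg over 11464 genes, adjusted p from 0.469 to 0.995). An unadjusted p under 0.05 was found for 8 of the 51, against 9.84% of all genes tested. Of these, 5 were higher in STYK1 libraries (Golgb1, Trappc8, Exoc6b, Sec23a and Sec31a), against 4.95% of all genes, and 3 lower (Trappc6a, Trappc3 and Trappc2l), against 4.88%. All 3 STYK1 libraries lay above all 3 vector libraries for 13 of the 51 genes and below them for 6, against 13.6% and 9.44% of all genes. Leaving out STYK1 1, 2 or 3 reduced the 5 higher genes to 2, 0 and 1, and the 3 lower genes became 1 without STYK1 2 and 5 without vector 3. The counts over all genes in these fits are not given here, so these changes cannot be set against those of all genes. The median log2 difference was 0.03, beside 0.01 over all genes, with 31 genes above 0 and 20 below. For 45 of the 51, the 95% interval of the difference lay within 1.5-fold in either direction on the log2(FPKM + 1) scale. The exceptions were Trappc6a, Sec31a, Sec24a, Sec24d, Cog8 and Exoc3l4.

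Vector 1 was the lowest of the 6 libraries for 20 of these genes and the highest for another 20. Without it, the log2 difference became smaller by over 1.5 times for 24 of the 51, larger by over 1.5 times for 7 and of the other sign for 6, and it stayed within 1.5 times for 14. Counts at an unadjusted p under 0.05 were then 4 higher and 4 lower, beside 4.91% and 4.57% of all genes. Because of this, most differences below are followed by their value without vector 1.

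**Figure D2:**
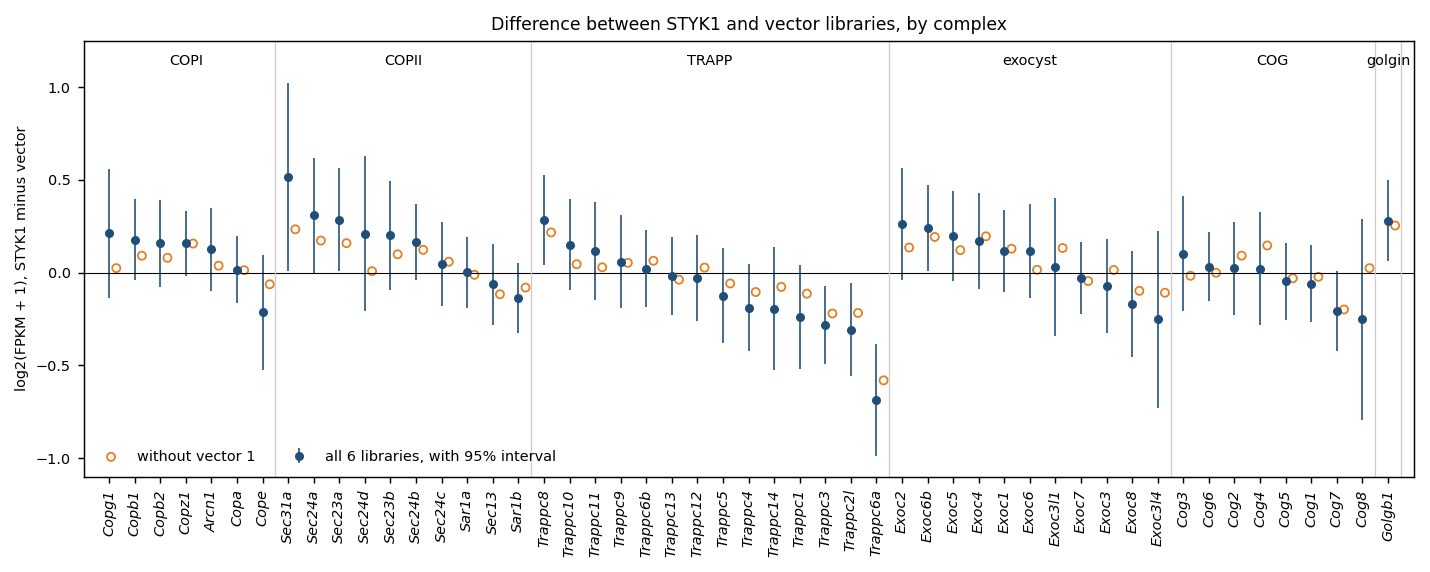
Difference in log2(FPKM + 1) between the 3 STYK1 and the 3 vector libraries for each gene; filled points with bars are the estimates from all 6 libraries with 95% intervals, open circles the estimates without vector 1. Trappc6a, at -0.69, lies farthest from 0, and many open circles are nearer to 0 than the filled points, as for Sec31a (0.23 against 0.51).

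The TRAPP genes held the largest difference of the 51, and most core genes had lower means in STYK1 libraries. TRAPP has a shared core of small subunits, to which TRAPPC9, TRAPPC10 and TRAPPC14 are added in TRAPPII and TRAPPC8, TRAPPC11, TRAPPC12 and TRAPPC13 in TRAPPIII. This division into subassemblies, like the others below, was applied after the values had been seen and has no test of its own. Of 7 measured core genes, 6 had a lower mean in STYK1 libraries and Trappc6b did not (7 of 7 after median centring), with a median log2 difference of -0.24 and 3 genes at an unadjusted p under 0.05 (1 with equal FPKM sums). Over all genes, 4.88% were lower at that level, and 218 of 11464 with equal FPKM sums. The 7 genes of TRAPPII and TRAPPIII had 4 differences above 0 and 3 below.

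Trappc6a (Gene ID 101836853), a small core subunit of TRAPP, had 34.1, 26.6 and 27.7 FPKM in the vector libraries, against 16.4, 16.7 and 20.6 FPKM in the STYK1 libraries. Each STYK1 library was thus below each vector library, and vector 1 was the highest. The means were 29.5 ± 4.06 and 17.9 ± 2.34 FPKM (SD, n = 3 each), 1.65-fold lower in STYK1 libraries. Its difference in log2(FPKM + 1) came to -0.69 ± 0.13 (SE; 95% interval -0.99 to -0.39), with the sixth smallest p of all 11464 genes (limma-trend, unadjusted p = 7.24e-04, adjusted p = 0.469). Without vector 1 it was -0.58. Quality weights, estimated from the scatter of each library's own values and from no separate measure of quality, gave vector 1 a weight of 0.129. With them the difference was -0.61 and Trappc6a passed the test (limma-trend, adjusted p = 0.0329). In all, 24 genes passed (0.209%), with no other of the 51 among them. At an unadjusted p under 0.05, 1202 of all genes were then higher and 1163 lower, against 568 and 560 without weights. Over the other alternatives the adjusted p of Trappc6a ran from 0.334 to 0.803.

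Trappc3 (Gene ID 101836756), the core subunit with which TRAPPC6A pairs, was at 40.8, 35.7 and 36.2 FPKM in vector and at 30.9, 29.2 and 32.05 FPKM in STYK1 libraries. Trappc2l (Gene ID 101824790), a relative of TRAPPC2 within the core, was at 118.7, 97.75 and 98.8 FPKM in vector and at 82.5, 78.0 and 93.4 FPKM in STYK1 libraries. For both genes the groups did not overlap, and vector 1 was the highest library. Their log2 differences were -0.28 ± 0.09 (SE) and -0.31 ± 0.11 (SE), and -0.22 and -0.22 without vector 1. The core genes Trappc1, Trappc4 and Trappc5 had smaller differences of -0.24, -0.19 and -0.12, of which Trappc4 had groups apart, at 23.7 to 29.3 FPKM in vector and 22.5 to 22.9 FPKM in STYK1 libraries. Without vector 1 these 3 were -0.11, -0.10 and -0.06. Vector 1 was the highest library for all 7 measured core genes, Trappc6b included. Relative to the vector mean, the average level of the core was 0.16, -0.11 and -0.05 log2 units in the vector libraries, against -0.29, -0.28 and -0.21 in the STYK1 libraries. Its median difference was -0.11 without vector 1, again with 6 of 7 below 0, and -0.13 with FPKM sums made equal, where the median over all genes was 0.12.

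Among the subunits outside the core, Trappc8 (Gene ID 101830744), a large subunit of TRAPPIII with a role in autophagy, had the largest difference and the opposite sign. It stood at 15.98, 19.3 and 18.0 FPKM in vector and at 20.8, 23.6 and 21.1 FPKM in STYK1 libraries. All STYK1 libraries were above all vector libraries, by 0.29 ± 0.11 log2 units (SE), or 0.22 without vector 1. Its TRAPPIII partners Trappc11, Trappc12 and Trappc13 differed by 0.12, -0.03 and -0.02, and by 0.03, 0.03 and -0.04 without vector 1, with overlapping groups. Of the TRAPPII subunits, Trappc10 and Trappc14 differed by 0.15 and -0.20, and by 0.05 and -0.08 without vector 1. Trappc9, the TRAPP gene of lowest level, was among the steadiest, at 6.87, 7.10 and 6.87 FPKM in vector and 6.82, 7.33 and 7.72 FPKM in STYK1 libraries.

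In the COPII coat, all 6 genes of the inner layer had a higher mean in STYK1 libraries, by a median of 0.21 log2 units, or 0.11 without vector 1, with 6 of 6 above 0 in both and under each scaling tried. Sec23a had an unadjusted p under 0.05. The count at that level was 3 with equal FPKM sums, where 1263 of all 11464 genes were higher. It was 0 without vector 1, after median centring or after quantile normalization. Sec23a (Gene ID 101844480), which stimulates GTP hydrolysis by SAR1, was at 20.3, 26.1 and 27.5 FPKM in vector and at 30.8, 28.9 and 30.5 FPKM in STYK1 libraries. The STYK1 libraries lay above the vector libraries, with STYK1 2 only slightly above vector 3, and the log2 difference was 0.29 ± 0.12 (SE), or 0.16 without vector 1. Its paralog Sec23b was at 11.1, 14.3 and 13.7 against 13.98, 14.5 and 16.9 FPKM, with groups that overlapped (0.20 ± 0.13, SE, and 0.10 without vector 1).

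The SEC24 genes, whose products select different cargo, were less alike. Sec24a (Gene ID 101832976) was at 14.4, 19.7 and 19.2 FPKM in vector and at 21.7, 24.1 and 20.5 FPKM in STYK1 libraries. Sec24b was at 17.9, 19.7 and 19.6 FPKM in vector and at 21.7, 21.5 and 21.3 FPKM in STYK1 libraries, so that for both of these genes the groups were apart. Sec24c, at 18.9, 16.9 and 19.9 against 18.9, 18.4 and 20.1 FPKM, showed nearly the same levels in both groups. Sec24d stood at 11.1 FPKM in vector 1, but at 17.3 and 17.7 FPKM in vector 2 and 3, inside the STYK1 range of 15.2 to 19.7 FPKM. The log2 differences of Sec24a to Sec24d were 0.31, 0.17, 0.05 and 0.21 in that order, and 0.17, 0.12, 0.06 and 0.0076 without vector 1.

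The outer cage and the GTPases did not share one direction. Sec31a (Gene ID 101838460), the rod-forming cage subunit, had the largest positive difference of the 51 genes with all 6 libraries, but not without vector 1 or with quality weights, where that of Golgb1 was larger (0.25 against 0.23 and 0.24 against 0.19). It stood at 12.0, 22.2 and 22.6 FPKM in vector and at 23.4, 28.1 and 28.3 FPKM in STYK1 libraries. All STYK1 libraries were above all vector libraries, but vector 1 was far below the rest and STYK1 1 less than 1 FPKM above vector 3. The log2 difference was 0.51 ± 0.22 (SE), its 95% interval reached from 0.0062 to 1.02, and it was 0.23 without vector 1. Sec13, which joins SEC31A in the cage, was at 78.6, 87.0 and 89.3 FPKM in vector and at 82.7, 73.8 and 87.8 FPKM in STYK1 libraries, with a difference of -0.06 that was -0.12 without vector 1 and 0.05 after scaling to equal FPKM sums. Sar1a was at 66.9, 69.6 and 68.0 against 70.4, 62.9 and 71.7 FPKM, a difference of 0.0013 that was -0.03 after median centring and -0.01 without vector 1. Sar1b was at 91.8, 82.0 and 80.8 against 74.8, 77.8 and 78.1 FPKM, with groups apart and a difference of -0.14, or -0.08 without vector 1.

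No COPI subunit had an unadjusted p under 0.05, and all 7 intervals lay within 1.5-fold. The count higher at that level was 2 with equal FPKM sums and 1 after quantile normalization, with quality weights or without vector 1. Of all 11464 genes, 1263 were higher with equal FPKM sums, 474 after quantile normalization and 1202 with quality weights. Without vector 1 the count was 562 of 11455 genes. Copz1 (Gene ID 101841958), the small zeta subunit, was at 57.2, 55.2 and 59.5 FPKM in vector and at 63.1, 63.6 and 65.2 FPKM in STYK1 libraries. These groups were apart, and the difference of 0.16 ± 0.08 (SE) was the same without vector 1 (0.16), where its unadjusted p was 0.0324 (limma-trend). Copb1, the beta subunit, also had groups apart, at 57.6, 69.0 and 69.4 against 75.1, 75.3 and 71.0 FPKM, by 0.18, or 0.09 without vector 1. Copg1, the gamma subunit that binds cargo tails and ARF regulators, was at 40.65, 60.1 and 61.2 FPKM in vector and at 62.9, 59.3 and 63.0 FPKM in STYK1 libraries. Its groups overlapped, vector 1 was the lowest library, and the difference of 0.21 was 0.02 without that library. The alpha subunit Copa, whose product binds KKXX retrieval signals, was steady at 84.8, 86.4 and 84.5 against 81.8, 85.5 and 91.6 FPKM. Cope, the epsilon subunit that stabilises COPA, was the subunit with a lower STYK1 mean, at 194, 147 and 136 FPKM in vector and at 127, 134 and 147 FPKM in STYK1 libraries, with groups that overlapped and a difference of -0.21, or -0.06 without vector 1. The remaining subunits Copb2 and Arcn1 had differences of 0.16 and 0.13, and of 0.08 and 0.04 without vector 1.

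**Figure D3:**
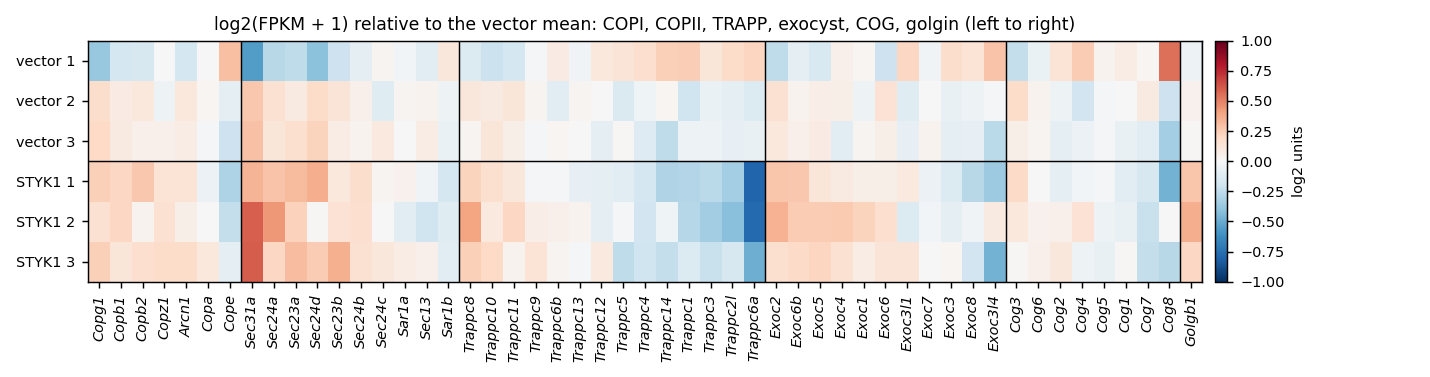
Colour shows log2(FPKM + 1) of each gene in each library relative to the mean of the 3 vector libraries, with genes grouped by complex and ordered by their difference; vertical lines separate complexes and the horizontal line the 2 groups. Blue columns for Trappc6a fill all 3 STYK1 libraries, while vector 1 is the lowest library for Sec31a and the highest for Cog8.

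Of the 9 exocyst subunit genes, 6 had a higher STYK1 mean (5 with quality weights and 8 with equal FPKM sums), and 5 had all STYK1 libraries above all vector libraries (against 13.6% of all genes): Exoc1, Exoc2, Exoc4, Exoc5 and Exoc6b. The gap was narrow for Exoc2, at 15.02 against 14.93 FPKM. For no exocyst gene were the STYK1 libraries all lower. Exoc6b (Gene ID 101840363) had an unadjusted p under 0.05 with all libraries, which was lost when any 1 library was left out, with the replicate block, after median centring and after quantile normalization. Its libraries were at 9.47, 10.4 and 10.6 FPKM in vector and at 12.4, 12.3 and 11.7 FPKM in STYK1 libraries. Its groups were more than 1 FPKM apart, and the log2 difference was 0.24 ± 0.10 (SE), or 0.19 without vector 1. Exoc6, its paralog and like it a subunit that meets RAB GTPases on the vesicle, was at 24.5, 31.6 and 29.7 against 29.6, 32.1 and 31.2 FPKM, and its difference of 0.12 was 0.02 without vector 1. Exoc2, which binds RAL GTPases, was at 10.97, 14.9 and 14.4 FPKM in vector and at 16.4, 17.2 and 15.0 FPKM in STYK1 libraries, a difference of 0.26, or 0.14 without vector 1.

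Exoc4, the SEC8 subunit, was at 8.04, 8.10 and 7.10 FPKM in vector and at 8.31, 9.50 and 8.72 FPKM in STYK1 libraries. Its difference of 0.17, with that of Exoc1 (0.12), became slightly larger without vector 1, at 0.20 and 0.13. Exoc5 differed by 0.20, or 0.12 without vector 1. Exoc7, which binds phosphoinositides at the plasma membrane, was nearly level, at 22.5, 23.1 and 23.7 against 22.2, 22.6 and 23.2 FPKM. Exoc3 and Exoc8 differed by -0.07 and -0.17, with overlapping groups, and by 0.01 and -0.10 without vector 1. The median difference of the 9 subunits was 0.12 with all libraries and 0.12 without vector 1.

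None of the 8 COG genes had an unadjusted p under 0.05. At that level 1 was lower without vector 1, after median centring, after quantile normalization and with quality weights. Over all genes, 523, 762, 570 and 1163 were lower in these fits, in that order. COG had 4 differences above 0 and 4 below (2 and 6 after median centring or quantile normalization). Its median was -0.01, or 0.09 with equal FPKM sums. Cog7 (Gene ID 101826052), of the lobe that COG5 to COG8 form, was the gene of this complex whose groups did not overlap, at 24.9, 26.2 and 22.5 FPKM in vector and 21.8, 20.8 and 20.6 FPKM in STYK1 libraries. The difference was -0.21 ± 0.09 (SE) and kept its size without vector 1 (-0.20). Cog6, the most abundant, was at 33.3, 35.75 and 35.5 against 34.8, 35.9 and 36.1 FPKM, and Cog3, the least abundant, at 7.68, 10.6 and 9.68 against 10.7, 10.03 and 9.32 FPKM. Cog8 was the most variable gene of all 51, with a coefficient of variation of 31.5% over the 6 libraries. It stood at 17.7 FPKM in vector 1 and between 8.16 and 11.7 FPKM in the other 5 libraries, and its difference of -0.25 was 0.02 without vector 1.

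Golgb1 (Gene ID 101824612) encodes giantin, a very large golgin anchored in the Golgi membrane. It stood at 13.8, 14.9 and 14.5 FPKM in vector and at 17.7, 18.8 and 16.7 FPKM in STYK1 libraries. The lowest STYK1 library was above the highest vector library, the means differed 1.23-fold, and the log2 difference was 0.28 ± 0.10 (SE), or 0.25 without vector 1. Unlike Sec31a or Copg1, Golgb1 had a vector 1 value close to those of vector 2 and 3.

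The same route was followed through 79 further tested genes on lists of its other components, none of which passed the test (limma-trend). At an unadjusted p under 0.05, 10 of these (12.7%) were higher and 5 (6.33%) lower in STYK1 libraries, against 4.95% and 4.88% of all genes. Without vector 1 the counts were 8 and 4, against 4.91% and 4.57% of all genes. Differences above 0 then fell from 47 to 37 of the 79 genes, and their median from 0.05 to -0.0079. Of 20 other tethers and golgins, 16 had a higher STYK1 mean (14 without vector 1), and 5 were higher at that level (against 4.95% of all genes): Trip11, Tmf1, Golga3, Golga5 and Gcc2. This count was 3 after median centring or quantile normalization and 4 without vector 1. Over all genes, 402, 474 and 562 were higher in these fits, in that order. Golga5 and Gcc2 were named after their values had been seen. Trip11, which encodes GMAP-210, was at 2.0, 3.33 and 3.36 FPKM in vector and at 5.17, 5.13 and 3.91 FPKM in STYK1 libraries, 0.57 ± 0.19 log2 units apart (SE), or 0.39 without vector 1. Tmf1 and Golga3 differed by 0.34 and 0.40, and by 0.22 and 0.25 without vector 1. The list's median was 0.13, or 0.08 without vector 1, beside 0.01 and 0.02 over all genes.

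At an unadjusted p under 0.05, 2 of 21 SNARE and associated genes of the endoplasmic reticulum and Golgi were higher (Napg and Gosr1). Another 2 were lower (Use1 and Bnip1), and the counts were 2 and 1 without vector 1. The shares over all genes were 4.95% higher and 4.88% lower, or 4.91% and 4.57% without vector 1. Use1, a SNARE of vesicles returning to the endoplasmic reticulum, was at 37.9, 25.0 and 27.9 FPKM in vector and at 19.5, 19.3 and 20.9 FPKM in STYK1 libraries, -0.56 ± 0.15 log2 units apart (SE), or -0.39 without vector 1. Napg and Gosr1 differed by 0.40 and 0.30, and by 0.21 and 0.18 without vector 1. Of 20 p24 proteins and cargo receptors, 2 were higher (Tmed5 and Tmed8) and 1 lower (Tmed1), or 1 and 1 without vector 1. The shares over all genes beside these counts are those given above. Tmed5 was at 2.21, 6.02 and 6.90 FPKM in vector and at 10.1, 9.92 and 8.52 FPKM in STYK1 libraries, a difference of 0.90 ± 0.31 log2 units (SE) that was 0.49 without vector 1. Tmed1 was at 29.5, 27.9 and 27.0 against 22.3, 22.9 and 22.7 FPKM, with both groups tight and a difference of -0.30, or -0.27 without vector 1. Tmed8, near the filter at 0.44 to 1.98 FPKM, differed by 0.53, or 0.36 without vector 1.

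Of 14 genes of COPI paralogs, ARF GTPases and their regulators, Arfgef1, an exchange factor of ARF GTPases, was higher at that level (0.35, or 0.26 without vector 1) and Copz2 and Arf5 were lower (-0.34 and -0.24, or -0.24 and -0.17 without vector 1). Over all genes, 4.95% were higher and 4.88% lower at that level. Among 4 tested organisers of the sites where COPII forms, none was past it. Mia3, which encodes TANGO1, and the scaffold Sec16a had STYK1 libraries all above vector libraries, by 0.31 and 0.20, and by 0.15 and 0.15 without vector 1, while Tfg differed by -0.02 both with and without vector 1.

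But for the 1 FPKM added before the logarithm, the ratio of paralogs within a library does not move with the library's overall scale. In this way, 8 pairs past the filter were compared. The groups did not overlap for 2 of them. The log2 ratio of Trappc6a to Trappc6b was 0.40, 0.24 and 0.17 in the vector libraries, against -0.52, -0.56 and -0.25 in the STYK1 libraries. Trappc6a thus had the higher FPKM of the pair in every vector library and the lower in every STYK1 library. Trappc6b itself was at 25.7, 22.4 and 24.5 against 23.96, 25.1 and 24.6 FPKM. How reads shared by gene copies were handled is not given, so which gene of the pair had more RNA is uncertain. The mean ratio was 0.27 ± 0.12 in vector and -0.44 ± 0.17 in STYK1 libraries (SD, n = 3 each), a difference of -0.71, or -0.645 without vector 1. The exact permutation p (two-sided) was 0.1, which is the smallest that 3 against 3 libraries can reach, and 0.4 after Benjamini-Hochberg adjustment over the 8 pairs.

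The other pair was that of the zeta subunits of COPI. Copz2 was at 30.8, 24.4 and 24.6 FPKM in vector and at 19.5, 20.1 and 22.5 FPKM in STYK1 libraries, while Copz1 lay higher in the STYK1 libraries, as given above. Their log2 ratio was 0.87, 1.14 and 1.24 in vector and 1.65, 1.61 and 1.49 in STYK1 libraries. The difference was 0.50, or 0.39 without vector 1 (two-sided exact permutation p = 0.1, adjusted p = 0.4). For the remaining 6 pairs the groups overlapped, with exact permutation p from 0.3 to 0.9. Copg1 exceeded Copg2 by 1.37 ± 0.22 log2 units in vector and 1.45 ± 0.04 in STYK1 libraries, with vector 1 at 1.118 and the other 5 libraries between 1.41 and 1.51. Sec23a exceeded Sec23b by 0.87 ± 0.08 and 0.95 ± 0.13, and Exoc6 exceeded Exoc6b by 1.40 ± 0.11 and 1.28 ± 0.08. The ratio of Sar1a to Sar1b was -0.31 ± 0.12 and -0.17 ± 0.12. The ratio of Sec24a to Sec24b was -0.11 ± 0.16 and 0.04 ± 0.11, and that of Sec24c to Sec24d was 0.28 ± 0.39 and 0.12 ± 0.16, the last with 0.71 in vector 1 and -0.03 to 0.27 in the other libraries.

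**Figure D4:**
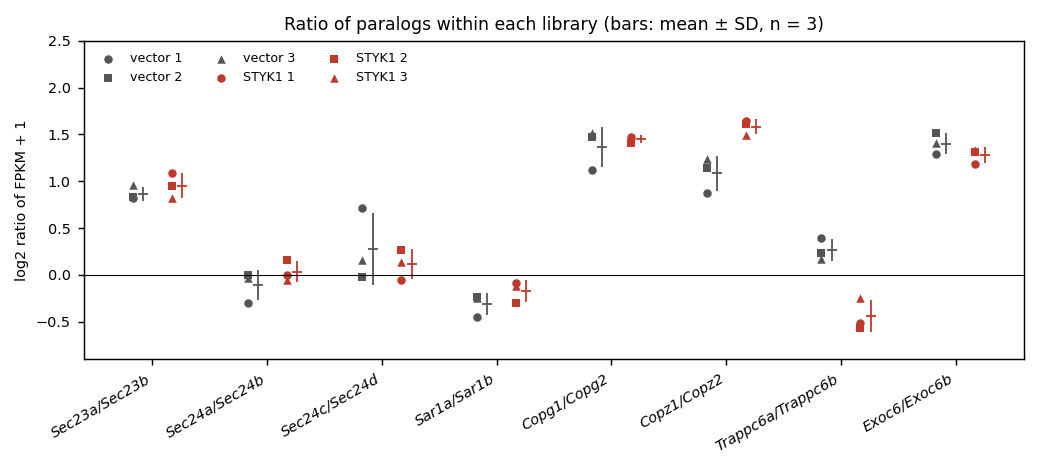
log2 ratio of FPKM + 1 between the 2 genes of each pair in each library, grey for vector and red for STYK1, with bars for the mean and SD of 3 libraries. The red and grey points separate for Trappc6a/Trappc6b and Copz1/Copz2 and overlap for the other 6 pairs.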

How the data were processed

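Per the labels' protocols, Trizol RNA of transfected BHK21 cells (3 STYK1/NOK and 3 vector libraries) was prepared with an Illumina TruSeq kit. Per the file headers, the authors deposited FPKM for each NCBI Gene ID, with no counts. Bowtie 0.12.2 and the mouse builds mm8 and mm9 are named, with no role, in the submitters' processing notes. Not given in the sources used here are the tool that computed FPKM, the use of strand and the handling of reads shared by gene copies. Values of paralogs and overlapping genes are therefore uncertain.

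Of 16078 IDs, 15049 were named from RefSeq's table for BCM_Maur_2.0, whose coordinates were not used. The 11464 genes that reached a group mean of 1 FPKM were tested on log2(FPKM + 1) with limma-trend (limma 3.58.1, R 4.3.3, robust empirical Bayes), Benjamini-Hochberg adjusted over all of them. Differences on that scale understate the change of low genes. Folds are ratios of mean FPKM. A paralog ratio is a difference of log2(FPKM + 1) within a library, tested by exact permutation (scipy 1.17.1). Alternatives were pseudocounts of 0.1 and 0.5, no filter, a mean of 5 FPKM, equal FPKM sums, median centring, quantile normalization, no robust fit, quality weights, a replicate block and leaving out each library. Library values are given for members with groups apart and an unadjusted p under 0.05, the highest and lowest of each complex and the paralog pairs. From each further list come up to 3 genes of smallest p. Library values of other members were chosen after they had been seen. The members, lists and alternatives were chosen with earlier results of these data known. A planned comparison with protein length was not made, and no sequence is shown.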

Additional observations from a re-analysis of the deposited data

How the results depend on the processing

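Under every alternative but quality weights, 0 of the 51 genes passed the test, and under quality weights 1 passed, Trappc6a. Over all genes, 24 passed under quality weights and 0 to 2 when 1 library was left out. The counts at an unadjusted p under 0.05, 5 higher and 3 lower, were the least stable. There were 3 higher with no filter on low values, and 10 higher and 1 lower with equal FPKM sums. Median centring gave 2 higher and 4 lower, and quantile normalization 3 and 4. Over all 11464 genes the counts also moved with the scaling, from 568 higher and 560 lower to 1263 and 218 with equal FPKM sums. They were 402 and 762 after median centring, and 474 and 570 after quantile normalization. When 1 library was left out, 0 to 4 of the 51 were higher and 1 to 5 lower. Without STYK1 2, they were 0 and 1. Over all genes, 562 of 11455 were higher and 523 lower without vector 1. For the fits without another library, and for that with no filter, the counts over all genes are not given here. Equal FPKM sums also gave 20 genes with STYK1 libraries all above and 3 all below, against 13 and 6, and moved the median difference from 0.03 to 0.13 while that of all genes moved from 0.01 to 0.12. With 1 library left out, 13 to 19 were all above and 6 to 9 all below, and the median ran from 0.02 to 0.06. Groups with fewer libraries separate more readily, so these ranges cannot be set against 13 and 6. The matching counts of separated groups over all genes are not given here, nor are those with equal FPKM sums.

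Of the replicate numbers, same-numbered libraries deviated from their group means with correlations of -0.273, -0.156 and 0.113, so the numbers were not taken to pair the libraries. With the replicate block, 2 of the 51 were higher at an unadjusted p under 0.05 and 0 passed the test. Trappc2l was among the lower genes at that level (limma-trend, unadjusted p = 0.0338). The matching counts over all genes with the replicate block are not given here.

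Signs were followed under the alternatives only for the paralog pairs and for genes picked by p, by level or as paralogs. Other members changed sign too. Of the 51, 31 were above 0 in the main fit, 38 with equal FPKM sums and 26 after median centring. Copa, which was not followed, was at -0.0169 with quality weights. Among those followed, signs changed for Cog6 (-0.0116), Exoc6 (-0.0192) and the ratio Copg1/Copg2 (-0.0106) with quality weights. They also changed for Sar1a (-0.027) and Trappc6b (-0.0070) after median centring, and for Sec13 (0.0482) and Tfg (0.0871) with equal FPKM sums. After quantile normalization they changed for Tfg (0.0476) and Trappc9 (-0.0041). With 1 library left out, Cog3 ran from -0.0169 to 0.19, Cog6 from -0.0008 to 0.05, Sar1a from -0.0338 to 0.0591, Sec13 from -0.12 to 0.0062, Sec24c from -0.0156 to 0.10, Trappc6b from -0.0302 to 0.0638, Copg1/Copg2 from -0.0409 to 0.16 and Sec24c/Sec24d from -0.32 to 0.0513. Trappc6a ran from -0.79 to -0.58 and its ratio to Trappc6b from -0.81 to -0.64. The cause of these changes was not tested. The read depth is unknown, so counting error could not be separated from the spread between libraries.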
